A study of Homo sapiens with 12 samples.

Results

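The genes SOX9, HHIP, NEDD4L, RNF152, ADAM19, CBLB, ATP13A3 and FOXP1 were followed across GFP- and NRF2-expressing Hs 578T cells grown with or without cystine (Cyss). These 8 genes, of 55765 gene symbols counted, were chosen by a readout of the same libraries, namely a strong positive interaction between NRF2 and Cyss deprivation, so the values of that interaction are given as a description without a test. Hs 578T is a triple-negative breast cancer (TNBC) line, and the cells carried either GFP, as the control, or full-length NRF2, both introduced by lentiviral transduction. Each of the 4 groups had 3 libraries of polyadenylated RNA: GFP cells with Cyss, GFP cells without Cyss, NRF2 cells with Cyss and NRF2 cells without Cyss. Cells without Cyss were kept for 8 h in cystine-free medium that held methionine, glutamine and serum, and the control medium was the same with 0.8 mM L-cystine. Transduced lines were compared as they stood, so whatever came with the transgene beside NRF2 itself was part of the NRF2 groups. The labels did not say whether the 3 libraries of a group came from separate cultures, so the spread between them may be technical.

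The libraries held 27334061 to 44734611 reads on genes, with the highest totals in GFP cells with Cyss. NFE2L2, the gene for NRF2, checked the labels: its normalized counts were 3662 to 4682 in the 6 GFP libraries and 6567 to 8448 in the 6 NRF2 libraries, with transgene and endogenous reads counted together. All 6 mesenchymal markers listed were counted in every group, and the 5 epithelial markers divided. EPCAM and KRT19 were at or near 0 and CDH1 at 3.07 to 13.8 normalized counts, whereas KRT8 was at 150.4 to 235 and KRT18 at 769 to 1469. Of the 3 receptor genes listed as low in triple-negative cells, ESR1 was at 6.97 to 13.1 and PGR at 0 to 25.5. ERBB2, the third, was at 1157 to 1380. PGR group means were 4.71 with and 1.06 without Cyss in GFP cells, and 20.7 and 17.3 in NRF2 cells. The labels call the line epithelial. Replicate 3 of the GFP cells without Cyss stood apart from its 2 companions on the first principal component, at 4.27 against -7.67 and -4.38, on the side of the NRF2 libraries without Cyss, which lay between 20.5 and 22.2. NRF2 cells without Cyss replicate 1 had the largest share of reads outside genes, 7.84%, against 5.82% to 6.69% in the other 11 libraries. The responses and the interaction are also given without these libraries.

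Cystine is the oxidized dimer of cysteine and the form in which most cultured cells take it up, and its loss limits glutathione synthesis and is known to engage the amino acid response through ATF4. NRF2 is a transcription factor that drives glutathione and detoxification genes and is held low by KEAP1. The 8 genes are not a pathway. SOX9 and FOXP1 encode transcription factors, of the SRY-box and forkhead families. NEDD4L, CBLB and RNF152 encode E3 ubiquitin ligases, which attach ubiquitin to membrane transporters and channels, to activated receptor tyrosine kinases and their adaptors, and to lysosomal regulators of mTORC1 respectively. HHIP is a cell-surface antagonist that binds hedgehog ligands, ADAM19 is a membrane-anchored metalloproteinase that sheds ectodomains of membrane proteins, and ATP13A3 is a P5-type ATPase that moves polyamines.

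The working description of these genes as ones whose starvation response NRF2 amplifies did not match the counts in full. In GFP cells there was little response to amplify: the log2FC of Cyss deprivation ran from -0.05 in RNF152 to 0.23 in FOXP1, with a median of 0.09 over the 8 genes against -0.0029 over all 17674 genes tested, and none reached 0.32. In NRF2 cells the same log2FC ran from 0.63 in ATP13A3 to 0.98 in HHIP, with a median of 0.85 against -0.01 over all genes. The genes are therefore described here as higher without Cyss in NRF2 cells. In GFP cells without Cyss they were near their fed level, except FOXP1 at 0.23 (SE 0.0583). The fed levels also differed: with Cyss the log2FC of NRF2 against GFP cells ran from -0.29 in FOXP1 to -0.02 in SOX9.

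**Figure D1:**
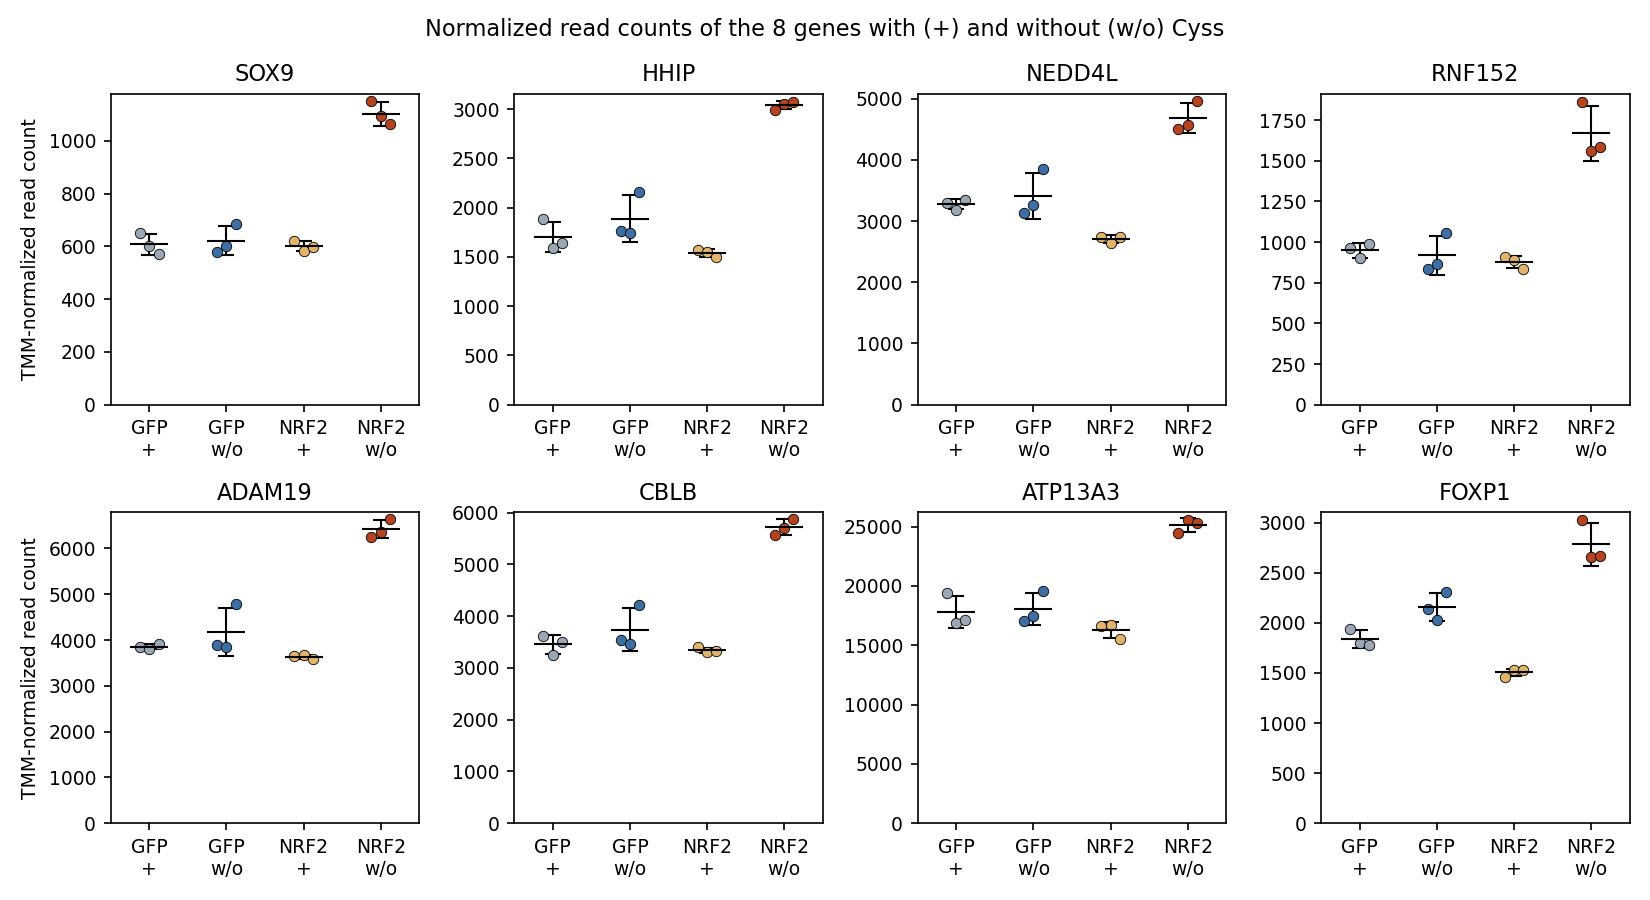
TMM-normalized read counts (y axis, from 0) of the 8 genes in the 4 groups (x axis); dots are the 3 libraries, and the line and bars are the mean ± SD. In every gene the 3 NRF2 libraries without Cyss lie above the other 9, and among GFP libraries without Cyss replicate 3, drawn at the right of its group, is the highest.

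To show the regulatory sequence beside the counts, RefSeq promoter windows on GRCh38.p14, from 250 bases before to 50 bases after an annotated start, were read for 6 of the 8 genes, 19 windows in all, because NEDD4L and CBLB had 5 windows each and FOXP1 had 6. Windows 3, 4 and 5 of CBLB overlap each other. The windows shown are the only ones of HHIP, ADAM19 and ATP13A3, and the 2 windows that hold the core of the antioxidant response element, the sequence NRF2 binds with small MAF proteins; capitals mark motif matches.
HHIP, 4:144645906-144646205, plus strand: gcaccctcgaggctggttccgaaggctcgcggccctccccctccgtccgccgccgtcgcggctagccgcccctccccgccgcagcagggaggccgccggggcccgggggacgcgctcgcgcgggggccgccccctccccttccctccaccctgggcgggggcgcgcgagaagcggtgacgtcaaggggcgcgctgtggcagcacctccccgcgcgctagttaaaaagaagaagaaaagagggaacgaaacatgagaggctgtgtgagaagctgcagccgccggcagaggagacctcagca
ADAM19, 5:157575726-157576025, minus strand: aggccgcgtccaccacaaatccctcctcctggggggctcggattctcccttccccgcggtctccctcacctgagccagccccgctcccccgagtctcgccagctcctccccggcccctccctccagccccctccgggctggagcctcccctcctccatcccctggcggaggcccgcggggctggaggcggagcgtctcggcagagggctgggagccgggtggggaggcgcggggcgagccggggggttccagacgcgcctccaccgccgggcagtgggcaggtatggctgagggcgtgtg
ATP13A3, 3:194468336-194468635, minus strand: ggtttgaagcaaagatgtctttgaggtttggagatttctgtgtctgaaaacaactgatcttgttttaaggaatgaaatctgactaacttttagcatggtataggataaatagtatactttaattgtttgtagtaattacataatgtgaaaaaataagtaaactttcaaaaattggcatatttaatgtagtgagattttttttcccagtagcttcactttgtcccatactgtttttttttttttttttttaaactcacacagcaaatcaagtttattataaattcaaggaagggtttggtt
CBLB window 1, 3:105869352-105869651, minus strand: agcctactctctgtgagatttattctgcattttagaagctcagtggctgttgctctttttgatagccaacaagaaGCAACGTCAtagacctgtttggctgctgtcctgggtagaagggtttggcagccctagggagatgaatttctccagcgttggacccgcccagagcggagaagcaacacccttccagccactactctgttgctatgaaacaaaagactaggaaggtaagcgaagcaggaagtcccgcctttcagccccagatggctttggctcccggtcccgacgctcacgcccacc
NEDD4L window 5, 18:58255266-58255565, plus strand: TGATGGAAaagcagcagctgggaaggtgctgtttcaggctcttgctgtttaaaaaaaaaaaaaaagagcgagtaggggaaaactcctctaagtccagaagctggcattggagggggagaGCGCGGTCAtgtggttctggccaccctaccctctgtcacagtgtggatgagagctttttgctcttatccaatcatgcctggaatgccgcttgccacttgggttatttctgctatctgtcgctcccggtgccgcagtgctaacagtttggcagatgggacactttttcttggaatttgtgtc

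The 5 motifs were searched on both strands, with positions counted from 0 at the annotated start to the first base of the match in the direction of the gene. The antioxidant response element core TGACNNNGC matched 2 of the 19 windows, as GCAACGTCA from position -175 in CBLB and GCGCGGTCA from position -131 in NEDD4L, both on the minus strand relative to the gene, and 13.3% of all 35116 windows held it. The ATF4 composite site core TGATGNAA, bound by ATF4 with a C/EBP partner, matched 3 windows, 2 of NEDD4L and 1 of FOXP1, against 3.62% of all windows. The AP-1 site TGANTCA matched 2 windows, 1 each of NEDD4L and FOXP1, against 7.71%. An AP-1 site followed by GC can also be an antioxidant response element core, but no match in these windows counted for both. The forkhead site GTAAACA matched 1 window of FOXP1, against 3.42%, and the E-box CACGTG matched none, against 7.26%. The single windows of HHIP, ADAM19 and ATP13A3 held none of the 5 motifs. Their GC content was 72.7%, 75.7% and 28.3%, against a median of 58.7% over all windows. No motif was therefore shared by the windows of all 6 genes, and these matches are letters in a window, not sites shown to be bound. The windows are on GRCh38.p14 and the gene positions below on GRCh37. Whether a window, that of ATP13A3 included, lies at the main start of its gene was not checked. A window without a motif therefore says nothing of the rest of the gene.

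Of the 2 transcription factor genes, SOX9 had overlapping counts in the 3 groups other than NRF2 cells without Cyss, and FOXP1 did not. SOX9 lies at 17:70117161-70122557 on the plus strand (GRCh37, as all gene positions here), in 3 exons, and drives chondrocyte and progenitor programmes. Its normalized counts were 651, 602 and 570.2 in GFP cells with Cyss and 579.6, 603 and 683 without. In NRF2 cells they were 619.8, 584 and 598 with Cyss and 1150.3, 1094 and 1063 without. The first 3 groups overlapped each other throughout, and the NRF2 libraries without Cyss stood above them all. The group means were 608 ± 40.7, 622 ± 54.2, 601 ± 18.3 and 1102 ± 44.3 (SD, n = 3 each), so that SOX9 differed by a log2FC of 0.03 (SE 0.0682) upon Cyss deprivation in GFP cells and of 0.88 (SE 0.0667) in NRF2 cells, an interaction of 0.84 (SE 0.0954).

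FOXP1, at 3:71003844-71633129 on the minus strand, encodes a forkhead repressor and is the longest gene of the 8 in genomic span, 629 kb. Its normalized counts were 1942, 1795 and 1781 in GFP cells with Cyss and 2136, 2026 and 2305 without. In NRF2 cells they were 1464, 1525 and 1531 with Cyss and 3029, 2656 and 2667 without. FOXP1 was the only one of the 8 whose GFP libraries without Cyss all lay above those with Cyss, as did 10.7% of all genes tested. Its 4 groups did not overlap at all, in the order NRF2 with Cyss, GFP with Cyss, GFP without Cyss, NRF2 without Cyss. Its log2FC of Cyss deprivation was 0.23 (SE 0.0583) in GFP cells and 0.88 (SE 0.0592) in NRF2 cells, and with Cyss present its log2FC between NRF2 and GFP cells was -0.29 (SE 0.0596).

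The 3 E3 ligase genes differed in where they started. NEDD4L, at 18:55711458-56068772 on the plus strand, encodes a HECT ligase known for removing the epithelial sodium channel from the membrane. Its normalized counts were 3302, 3189 and 3349 in GFP cells with Cyss and 3129, 3269.6 and 3844 without. In NRF2 cells they were 2747, 2639 and 2740.1 with Cyss and 4506, 4577 and 4970.1 without. The NRF2 libraries with Cyss lay below every GFP library and those without Cyss above every GFP library. NEDD4L therefore had both a lower fed level in NRF2 cells, by a log2FC of -0.28 (SE 0.0611), and a log2FC of 0.79 (SE 0.0610) upon Cyss deprivation in them, against 0.06 (SE 0.0605) in GFP cells.

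RNF152, at 18:59475300-59561480 on the minus strand, encodes a lysosomal RING ligase that acts on the Rag GTPase pathway, which signals amino acid supply to mTORC1. In GFP cells its normalized counts were 964, 899.5 and 987 with Cyss and 832, 866 and 1056 without. In NRF2 cells they were 906, 891 and 837 with Cyss and 1861, 1557 and 1587 without. The 2 GFP groups overlapped, with the 2 lowest libraries and the highest one all among those without Cyss, and the NRF2 libraries without Cyss were again above all others. RNF152 had the largest interaction of the 8 genes, 0.98 (SE 0.114), which is 1.97-fold between the responses, and the only GFP response below 0, -0.05 (SE 0.0811).

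CBLB, at 3:105374305-105588396 on the minus strand, encodes a RING ligase that restrains receptor and antigen-receptor signalling. With Cyss its normalized counts were 3617, 3253 and 3492 in GFP cells and 3396, 3305 and 3326 in NRF2 cells. Without Cyss they were 3544, 3464 and 4207 in GFP cells and 5571, 5706 and 5879 in NRF2 cells. The fed levels overlapped between the lines, and the whole separation lay in the starved groups, where NRF2 cells were 1.53-fold above GFP cells. The interaction was 0.66 (SE 0.0842).

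Of the 3 genes for membrane and cell-surface proteins, HHIP had the largest response in NRF2 cells. HHIP lies at 4:145567308-145666423 on the plus strand. Its normalized counts were 1881, 1594 and 1640.3 in GFP cells with Cyss and 1762, 1744 and 2162 without. In NRF2 cells they were 1572, 1548 and 1495 with Cyss and 2996, 3057 and 3070.3 without. The NRF2 libraries with Cyss lay just below the lowest GFP library, and those without Cyss were close together. Cyss deprivation was followed by a log2FC of 0.98 (SE 0.0708), or 1.98-fold, in NRF2 cells and of 0.15 (SE 0.0706) in GFP cells. HHIP shares 813 exonic bases with the antisense transcript HHIP-AS1, and the counting ignored strand, so reads there could not be told apart; HHIP-AS1 itself had 89 to 118 normalized counts in the 4 group means, far below HHIP, and its interaction was 0.11 (adjusted p = 0.718, edgeR quasi-likelihood test).

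ADAM19, at 5:156822542-157002783 on the minus strand, had normalized counts in GFP cells of 3849, 3799 and 3919 with Cyss and 3893, 3845 and 4792 without. In NRF2 cells the counts were 3646, 3671 and 3581 with Cyss and 6256, 6365 and 6644 without. The GFP library without Cyss replicate 3 lay far above the other 5 GFP libraries, which spanned only 3799 to 3919. The log2FC of Cyss deprivation was 0.12 (SE 0.0614) in GFP cells and 0.82 (SE 0.0616) in NRF2 cells. ADAM19 shares 62 exonic bases with CYFIP2 on the other strand, whose group means were 33.4 to 43.9.

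ATP13A3, at 3:194123401-194219093 on the minus strand, was the most abundant of the 8, at the 99.0th percentile of mean counts over all genes tested, and the highest per length, at 70.3 CPM per kb in GFP cells with Cyss against 3.23 for RNF152. Its normalized counts were 19398, 16873 and 17169 in GFP cells with Cyss and 17016, 17509 and 19550.1 without. In NRF2 cells they were 16644, 16715 and 15517 with Cyss and 24470.3, 25599 and 25340.3 without. The 2 GFP groups covered nearly the same range. ATP13A3 had the smallest interaction, 0.61 (SE 0.0789), with log2FCs of 0.02 (SE 0.0558) in GFP and 0.63 (SE 0.0560) in NRF2 cells.

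**Figure D2:**
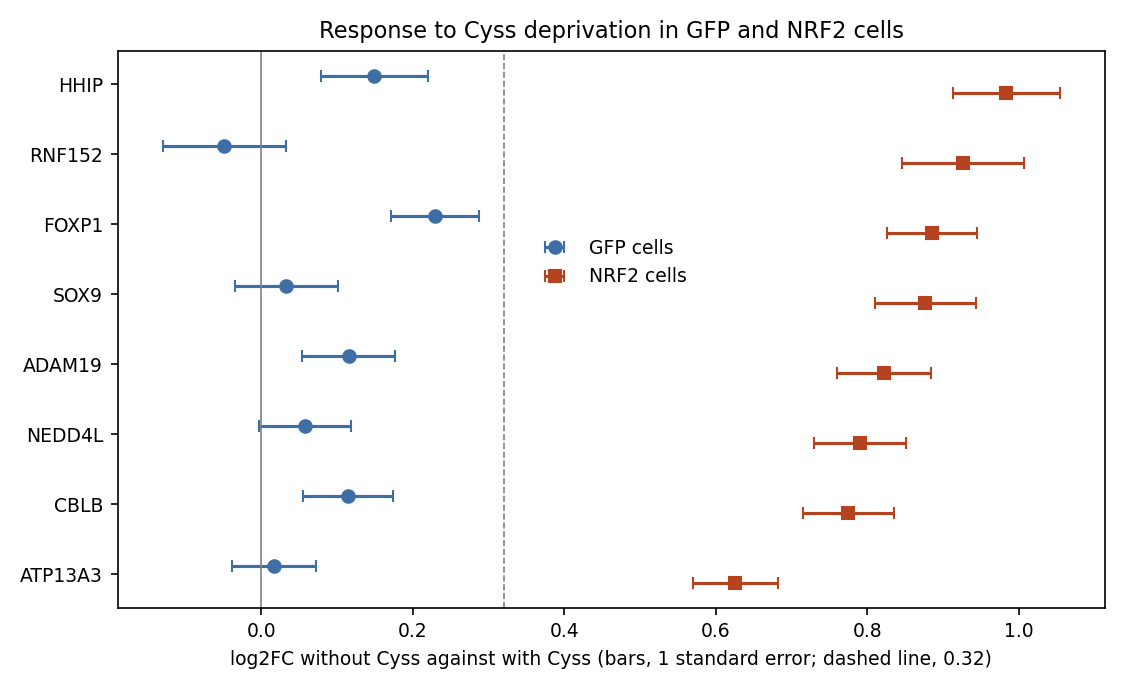
log2FC of Cyss deprivation (x axis) for the 8 genes (y axis) in GFP cells (circles) and NRF2 cells (squares), with bars of 1 standard error from the 12-library fit. The GFP values lie between -0.05 and 0.23, all left of the dashed line at 0.32, and the NRF2 values between 0.63 and 0.98.

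Seen from the other side of the design, NRF2 had little positive effect on these genes while Cyss was present. With Cyss the log2FC of NRF2 against GFP cells was below 0 in all 8 genes, from -0.29 in FOXP1 to -0.02 in SOX9, although that of SOX9 turned to 0.004 with library-size scaling and that of CBLB to 0.002 with offsets for GC content and length. In 5 of the 8 (HHIP, NEDD4L, ADAM19, ATP13A3 and FOXP1) the NRF2 libraries with Cyss lay wholly below the GFP ones, as did 14.7% of all genes. Without Cyss the log2FC of NRF2 ran from 0.37 in FOXP1 to 0.86 in RNF152. In all 8 genes the NRF2 libraries without Cyss lay above the other 9 libraries, an arrangement found in 8.42% of all genes and fixed here by the choice of the genes. These comparisons share libraries with each other and with the interaction.

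The averages over both cell lines or both media contain the NRF2 response without Cyss that chose the genes, so they too are given as a description without a test. The average log2FC of Cyss deprivation, the mean of the GFP and NRF2 responses, ran from 0.32 in ATP13A3 to 0.57 in HHIP, with SEs of 0.0395 to 0.0570. The average log2FC of NRF2 was largest in SOX9, 0.40 (SE 0.0477), and RNF152, 0.37 (SE 0.0570), and smallest in NEDD4L, 0.09 (SE 0.0429), and FOXP1, 0.04 (SE 0.0415). In FOXP1 the lower level with Cyss and the higher level without Cyss nearly balanced, at log2FCs of NRF2 of -0.29 and 0.37. In NEDD4L they did so only in part, at -0.28 and 0.46. For scale only, at adjusted p under 0.1 and a log2FC over 0.32 in size, 4.16% of all genes tested were called higher and 2.38% lower for the average of Cyss deprivation, and 2.82% higher and 1.4% lower for that of NRF2 (edgeR quasi-likelihood test).

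The interaction that chose the genes was positive in all 8, with a median of 0.72 against -0.01 over all genes. Of all genes tested 8.97% were called higher in the interaction and 5.59% lower at adjusted p under 0.1, or 1585 and 988 genes, which library-size scaling turned into 1126 and 1981. By p the 8 genes ranked between 3 and 12 of 17674, a place that their choice by this interaction made likely and that is no test of them. SLC7A2 (1.07) and DDIT4 (-0.72) ranked above all 8, INHBA (0.69) and BMP2 (1.60) among them, and just after them came EGR1 (1.77), AGO2 (0.67), ITPRIPL2 (0.68) and EGFR (0.57). By size the 8 were less extreme, at ranks 62 to 246 among 13793 genes with a mean count of at least 50 in any group. Their shape, a GFP response within 0.32 of 0 and an NRF2 response above 0.32, was that of 601 of the 1585 genes called higher, whereas 69 of the 1585 had both responses above 0.32.

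**Figure D3:**
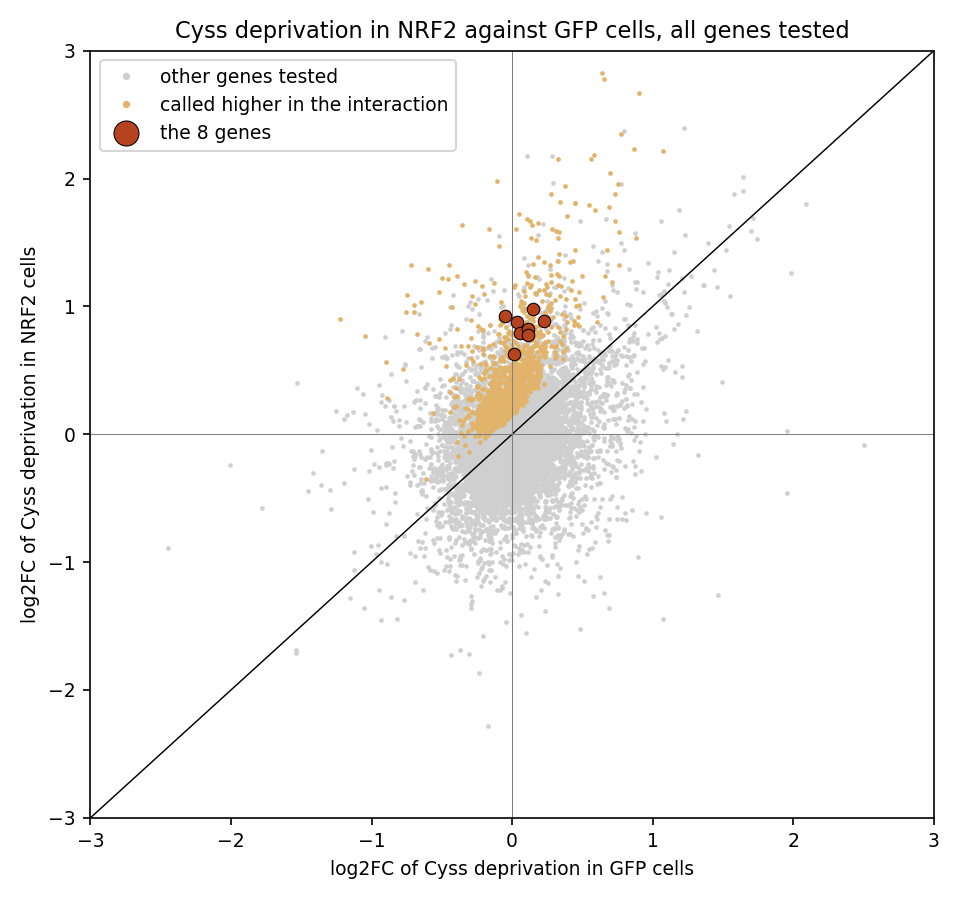
log2FC of Cyss deprivation in NRF2 cells (y axis) against GFP cells (x axis) for all genes tested, of which 7 lie outside the axes; orange dots are genes called higher in the interaction, large dots the 8 genes, and the diagonal marks equal responses. The 8 genes sit in a narrow column near 0 in GFP cells at 0.63 to 0.98 in NRF2 cells.

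The GFP response rested in large part on the library that stood apart. Averaged over the 8 genes as a z-score of log2 CPM, GFP without Cyss replicate 3 lay at 0.26, replicates 1 and 2 at -0.47 and -0.44, and the GFP libraries with Cyss between -0.61 and -0.25. In every one of the 8 genes it was the highest GFP library. Without it the GFP log2FCs ran from -0.18 in RNF152 to 0.16 in FOXP1, with a median of -0.03, and the interactions from 0.69 in ATP13A3 to 1.10 in RNF152, with a median of 0.84. The log2FC of NRF2 without Cyss ran from 0.43 to 0.99 without it. Without NRF2 without Cyss replicate 1, the library with most reads outside genes, the interactions ran from 0.59 to 0.89, the NRF2 responses to Cyss deprivation from 0.64 to 0.99 and the log2FC of NRF2 without Cyss from 0.30 to 0.79. Across all 12 libraries left out in turn, all 8 interactions remained above 0. The genes were chosen for a strong positive interaction in these libraries, so the kept sign is no test of it.

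The 8 genes were alike over the 12 libraries, and their likeness within groups rested in large part on the library that stood apart. Over the 12 libraries the correlation between pairs of them ran from 0.84 to 0.99, with a median of 0.96 over 28 pairs, and after subtraction of the group means it was 0.23 to 0.94, with a median of 0.65. Without GFP without Cyss replicate 3 the first ran from 0.86 to 0.99, with a median of 0.96, and the second from -0.57 to 0.94, with a median of 0.20. Without NRF2 without Cyss replicate 1 they ran from 0.77 to 0.99 and from 0.55 to 0.94, with medians of 0.96 and 0.79. These are descriptions of points that share libraries, depth and the pattern used to choose the genes. CBLB and ADAM19 were the closest pair, and the nearest neighbours of SOX9 and RNF152 among the 8 were each other.

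Among 13520 other genes with a mean count of at least 50, the 10 whose log2 CPM followed the mean z-score of the 8 most closely over the 12 libraries were PPFIBP1, MYO10, UBASH3B, SRGAP1, ZNF697, BCL10, ERN1, RIN2, SLC7A2 and EGFR, with Pearson's r from 0.997 to 0.988. PPFIBP1 encodes a liprin and MYO10 a filopodial myosin, whereas ERN1 encodes IRE1, a sensor of unfolded protein in the endoplasmic reticulum, SLC7A2 a transporter of cationic amino acids and EGFR the epidermal growth factor receptor. Their GFP log2FCs ran from 0.03 in EGFR to 0.22 in ERN1 and their NRF2 log2FCs from 0.50 in BCL10 to 1.23 in SLC7A2. The pattern was not rare: 5 genes had r of at least 0.99, 33 of at least 0.98, 187 of at least 0.95 and 489 of at least 0.9.

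The length of their transcripts was not itself used in the choice of genes. It moved with the interaction that chose them, as given below, so it is not independent of the choice. The canonical transcripts measured 3.93 kb for SOX9 and 6.48 to 9.94 kb for the other 7. Each of the 7 was at or above the 86.0th percentile of the 14738 tested genes with a position, whose median was 3026 bases. These genes, used for all medians in this paragraph, included noncoding ones, and 12770 of them were protein-coding. The genomic spans ran from 5.40 kb in SOX9 to 629 kb in FOXP1, against a median of 28.5 kb, and the GC content of the transcripts from 36.9% in HHIP to 53.7% in ADAM19, against a median of 47.8%.

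Length moved with the interaction over the whole transcriptome. When protein-coding genes were split into 5 equal bins of transcript length, in the shortest bin the median interaction was -0.13 and 2.23% were called higher, and in the longest bin it was 0.11 and 25.7%. Across genes, which are not independent replicates, the Spearman correlation of the interaction was 0.38 with transcript length, 0.27 with genomic span and -0.22 with GC content. With offsets that removed the trend of each library with GC content and length, 5.71% of the shortest and 13.8% of the longest bin were called higher. The interactions of the 8 genes were then 0.48 in ATP13A3 to 0.84 in RNF152, with a median of 0.62, and that of SOX9, the shortest, was 0.81 against 0.84 without the offsets. HHIP, the longest, went from 0.83 to 0.65.

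Relatives and partners of the 8 genes, 143 genes in 9 lists, were tested for the interaction. Of 107 with enough reads, 22 were called higher and 4 lower, with a median interaction of 0.05, where 8.97% and 5.59% of all genes were called. A small list near these shares says nothing of its own. The shares over all genes were not matched to the lists for transcript length. Among protein-coding genes the share called higher ran from 2.23% in the shortest to 25.7% in the longest bin.

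Around the transcription factors, most relatives gave no call. Of 7 SOX family genes tested, SOX4, a factor of progenitor and mesenchymal cells and the most abundant of the list, was called higher, with an interaction of 0.59 (SE 0.0939, adjusted p = 9.05e-04, edgeR) and mean counts of 3374 ± 297, 3551 ± 335, 3267 ± 174 and 5169 ± 231 (SD, n = 3 each) in GFP with, GFP without, NRF2 with and NRF2 without Cyss. None of the 4 tested cartilage genes that SOX9 is known to activate was called, and 1 was without GFP without Cyss replicate 1. COL2A1, the classic one, was below the count filter, and the most abundant, MATN3, a matrix protein, had 0.12 (SE 0.138, adjusted p = 0.649). Of 6 FOXP and FOXO genes, FOXO3, a forkhead factor of stress responses and the most abundant, was called higher at 0.23 (SE 0.0794, adjusted p = 0.0764), a call lost with any of 6 libraries left out (replicate 1 or 3 of GFP with Cyss, replicate 2 of GFP without Cyss, NRF2 with Cyss replicate 2 or 3, NRF2 without Cyss replicate 1; adjusted p 0.108 to 0.208), with library-size scaling (adjusted p = 0.160), and with the GC and length offsets (0.13, adjusted p = 0.258).

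Of 17 hedgehog genes tested beside HHIP, an antagonist that is itself a known target of the pathway, none was called higher and GLI1, the transcription factor that serves as the usual readout of hedgehog signalling, was called lower, with an interaction of -0.64 (SE 0.194, adjusted p = 0.0441) and mean counts of 86.5 ± 5.02, 115 ± 20.5, 91.1 ± 9.55 and 77.8 ± 4.38 in the group order above. That call was lost without GFP without Cyss replicate 1 (adjusted p = 0.139), NRF2 with Cyss replicate 2 (0.109) or NRF2 with Cyss replicate 3 (0.115). With library-size scaling, or with the GC and length offsets, 2 of the 17 were called lower. PTCH1, the receptor and also a target, had -0.44 (SE 0.220, adjusted p = 0.227). GLI3, the most abundant, had -0.01 (SE 0.115, adjusted p = 0.977). The ligand genes SHH, IHH and DHH were all below the filter. COL2A1, PTCH1 and the ligands were named after their values were seen.

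Ubiquitin ligase relatives gave more calls. Of 16 genes of the NEDD4 family and its adaptors, 5 were called higher and none lower. SMURF2, a ligase of the TGF-beta and BMP pathways, had an interaction of 0.66 (SE 0.106, adjusted p = 9.58e-04), with log2FCs of 0.21 in GFP and 0.87 in NRF2 cells. SMURF1 at 0.29 (SE 0.0683, adjusted p = 0.0121) and NEDD4, the closest paralogue of NEDD4L, at 0.28 (SE 0.0741, adjusted p = 0.0223) followed. ITCH, the most abundant, had 0.05 (SE 0.0634, adjusted p = 0.670). With the GC and length offsets 5 of the 16 were called higher and 1 lower, with library-size scaling 4 and 1, and without replicate 1 or 2 of GFP without Cyss 3 and none.

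Of 14 genes of the CBL family and receptor downregulation, all had interactions above 0 with TMM scaling, and 8 were called higher. Of all genes tested, 47.8% had an interaction above 0. The lowest of the 14 was close to 0, at 0.02. UBASH3B, a phosphatase that binds CBL, had 0.51 (SE 0.0719, adjusted p = 4.68e-04), and LRIG1, a membrane inhibitor of ERBB receptors, had 0.41 (SE 0.0659, adjusted p = 9.04e-04). ERRFI1, a feedback inhibitor of EGFR, had 0.82 (SE 0.160, adjusted p = 0.00349), with log2FCs of 0.76 in GFP and 1.58 in NRF2 cells. CRK, an adaptor and the most abundant of the list, had 0.06 (SE 0.0609, adjusted p = 0.561). With the GC and length offsets 7 of the 14 were called higher, with library-size scaling 6, and with 1 library left out 6 to 10. Library-size scaling also took CRK from 0.06 to 0.01 and the median over all genes from -0.01 to -0.07. Whether all 14 stayed above 0 with that scaling was not tested.

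Among 19 relatives of RNF152 and genes of the lysosomal Rag GTPase machinery, 2 were called higher and 2 lower. RNF182, a related RING ligase, had 0.39 (SE 0.0817, adjusted p = 0.00596) and FNIP1, a partner of folliculin, had 0.33 (SE 0.0881, adjusted p = 0.0257). LAMTOR4, a subunit of the Ragulator scaffold, had -0.31 (SE 0.0930, adjusted p = 0.0414), and its call was lost without replicate 1 of GFP with Cyss (adjusted p = 0.105), replicate 2 of GFP without Cyss (0.135) or NRF2 with Cyss replicate 1 (0.107), and with the GC and length offsets (0.115). With library-size scaling 2 of the 19 were called higher and 3 lower, and with 1 library left out 2 were called higher and 0 to 4 lower, none without replicate 1 of GFP with Cyss, replicate 2 of GFP without Cyss or replicate 1 of NRF2 with Cyss, and 3 and 4 without replicate 2 of GFP with Cyss and replicate 3 of NRF2 without Cyss. LAMTOR1, the most abundant and the membrane anchor of the same scaffold, had -0.10 (SE 0.0618, adjusted p = 0.356).

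The ADAM family divided. ADAM33 was called lower at -0.63 (SE 0.140, adjusted p = 0.00829), with mean counts of 238, 208, 300.5 and 169.6 in the group order above. ADAM28 at 0.94 (SE 0.340, adjusted p = 0.0918), with group means of only 18.9 to 38.7, and ADAM12, a protease of mesenchymal cells, at 0.15 (SE 0.0530, adjusted p = 0.0938) were called higher out of 11 tested. Both calls were close to the threshold: that of ADAM28 was lost with any library left out but replicate 2 of GFP with Cyss, replicate 3 of GFP without Cyss and NRF2 without Cyss replicate 1 (adjusted p 0.114 to 0.222), and that of ADAM12 with any but these 3 and NRF2 with Cyss replicate 1 (adjusted p 0.105 to 0.243). With the GC and length offsets, or without the filter on low counts, neither was called, and ADAM12 was at 0.03 (adjusted p = 0.656) with the offsets. ADAM28 was not called with the DESeq2 Wald test (adjusted p = 0.215) or ADAM12 with library-size scaling (0.243), which called 1 of the 11 higher and 2 lower. ADAM9, the most abundant, had 0.11 (SE 0.0712, adjusted p = 0.358).

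Of 13 P5-type ATPases and polyamine genes, 3 were called higher and none lower, but 2 and 3 with library-size scaling, 3 and 2 with the replicate block and 4 and 1 with the GC and length offsets. With 1 library left out 1 to 4 were called higher, 1 without replicate 1 of GFP without Cyss or replicate 2 of NRF2 with Cyss, and 0 to 2 lower, 2 without replicate 3 of NRF2 without Cyss. ODC1, the rate-limiting enzyme of polyamine synthesis, had 0.61 (SE 0.135, adjusted p = 0.00867), with mean counts of 8335, 9301, 7033 and 11949 in the group order above. SRM, spermidine synthase, had 0.21 (SE 0.0633, adjusted p = 0.0421) and lost its call without GFP without Cyss replicate 1 (adjusted p = 0.103) or NRF2 with Cyss replicate 2 (0.119), and with library-size scaling (0.16, adjusted p = 0.107). SAT1, the acetyltransferase that starts polyamine breakdown, had 0.40 (SE 0.133, adjusted p = 0.0706) and lost its call with any library left out but replicate 3 of GFP with Cyss, replicate 3 of GFP without Cyss and NRF2 without Cyss replicate 1 (adjusted p 0.101 to 0.167), and with the DESeq2 Wald test (0.184). AZIN1, the antizyme inhibitor and the most abundant, had -0.05 (SE 0.0706, adjusted p = 0.725).

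**Figure D4:**
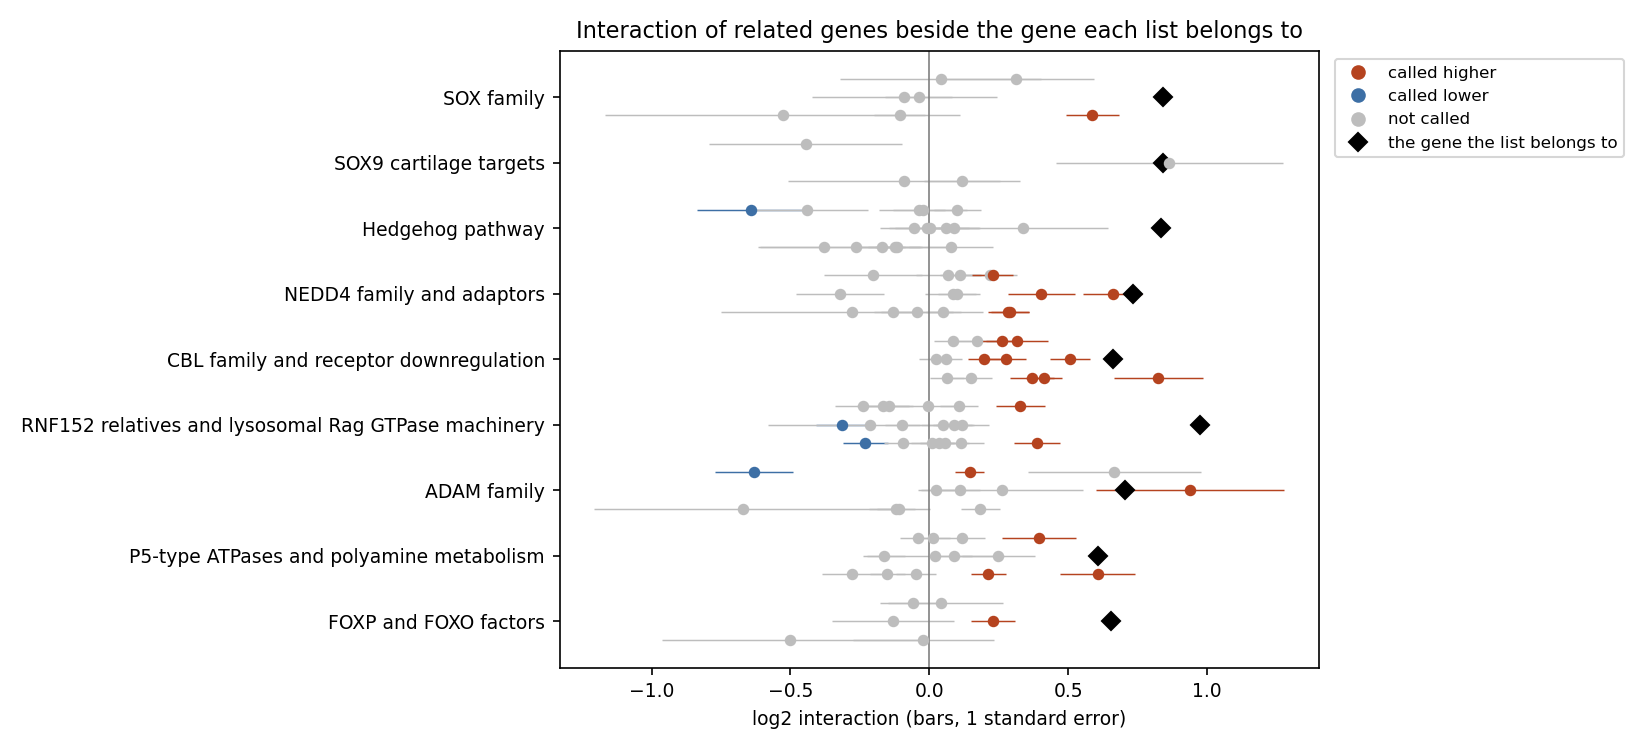
log2 interaction (x axis) of each tested gene in the 9 lists (y axis), with bars of 1 standard error; dots are coloured by call and diamonds mark the gene each list belongs to. With TMM scaling, as drawn, the CBL list lies wholly above 0, the hedgehog list holds its single call at -0.64, and the other lists spread to both sides of 0.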

How the data were processed

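The 12 RNA-seq libraries (TruSeq RNA v2, single-end reads) comprised 3 for each of 4 groups taken from the sample titles. The deposited values were raw read counts per gene, which the authors made with TopHat2 2.1.0 and Bowtie on hg19 and with HTSeq 0.11.2 without strand, per the submitters' processing notes and the methods of the study, after FastQC. The annotation release was not given in the sources used here. Reads of the 523 rRNA genes, 0.304% to 0.366% of the reads on genes, were removed as in the study. Gene positions, transcript lengths and GC content came from GENCODE on GRCh37 (33529 of 55765 symbols matched by name and 1860 by an older symbol).

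Counts were scaled by TMM over the 12 libraries, and the 17674 genes whose normalized count averaged 10 or more in any group were fitted with edgeR 4.0.16 (R 4.3.3) as 4 group means with the quasi-likelihood test and Benjamini-Hochberg adjustment over all genes. The interaction is the log2FC of Cyss deprivation in NRF2 cells minus that in GFP cells and was called at adjusted p under 0.1. For genes other than the members, averages were called at adjusted p under 0.1 and a log2FC over 0.32 in size; for the members the planned test of the averages is not given, because the averages contain a response that chose them. The SE is the log2FC divided by the root of the test statistic. Scripts were tested on simulated data.

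The members and the lists were chosen with earlier results of these data known, and the lists were written from general knowledge. The genes named are the members, from each list the genes called in the interaction (the 3 with the smallest p where more than 3 were called) and the most abundant one tested, the 10 genes most like the members, NFE2L2, and those said to be named after their values were seen. RNF225, AZIN2 and PECAM1, listed as a relative, a polyamine gene and a marker, were not analysed here. Replicate numbers were not used as pairs: over 18 same-numbered pairs the deviations from group means correlated at -0.18 to 0.26, with 6 over 0.1. No pair of libraries in a group agreed within sampling noise (chi-square per degree of freedom 2.22 to 13.0).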

Additional observations from a re-analysis of the deposited data

Results flagged for a closer look

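Each gene below was picked out because its response to Cyss deprivation differed between NRF2 and GFP cells in the test of the interaction (edgeR quasi-likelihood test, adjusted p under 0.1, all named in the report with their errors). The 8 genes the report follows are left out, since that difference chose them. The log2 interaction was 0.59 for SOX4, 0.66 for SMURF2, 0.29 for SMURF1, 0.28 for NEDD4, 0.51 for UBASH3B, 0.41 for LRIG1 and 0.82 for ERRFI1. It was 0.39 for RNF182, 0.33 for FNIP1, 0.94 for ADAM28, 0.15 for ADAM12, 0.61 for ODC1, 0.21 for SRM, 0.40 for SAT1 and 0.23 for FOXO3. It was below 0 for GLI1 (-0.64), LAMTOR4 (-0.31) and ADAM33 (-0.63). With single libraries left out in turn, some of these calls were lost. Those of ADAM28 and SAT1 were lost with any of 9 libraries left out, ADAM12 with any of 8 and FOXO3 with any of 6. Those of GLI1 and LAMTOR4 were lost with any of 3, and that of SRM with either of 2. No separate test for outlying libraries was run, with 3 libraries in a group.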

How the results depend on the processing

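All 8 interactions remained above 0 in the 21 other fits, between 0.48 and 1.10, a sign that the choice of the genes made likely. Of their 168 values, 18 moved by more than 1 SD between replicates, all with GC and length offsets or without GFP without Cyss replicate 3. The number of genes called higher in the interaction, 1585, was 937 to 1970 with 1 library left out, with 937 without GFP without Cyss replicate 2 and 1025 without NRF2 with Cyss replicate 3. The number called lower, 988, was 410 to 1606: 536 and 519 without GFP with Cyss replicates 1 and 3, 482 and 410 without GFP without Cyss replicates 1 and 2, 573, 637 and 508 without NRF2 with Cyss replicates 1, 2 and 3, and 623 and 1606 without NRF2 without Cyss replicates 2 and 3. It was 1981 with library-size scaling and 463 at adjusted p under 0.05. Without a fold threshold the averages gave 2231 genes higher and 2291 lower for Cyss deprivation (735 and 420 with it) and 2221 and 2582 for NRF2 (499 and 247 with it). The genes lower for NRF2 were 122 with DESeq2 1.42.0 and 163 at adjusted p under 0.05. The cause of these shifts was not tested, beyond the thresholds themselves. A block for the replicate number gave 1848 genes higher and 1218 lower in the interaction, and 6 of 12 libraries correlated best with their own number. The other fits of the named list genes, and the members' correlations with a library left out, were chosen after seeing the data.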
